A study of Mus musculus with 6 samples.

Results

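Metabotropic glutamate receptors are G protein-coupled receptors that sense the transmitter glutamate and tune synapses, alongside the ion channel receptors that carry the fast signal. Group I receptors act through Gq, phospholipase C and release of stored calcium and lie mainly on the receiving side of the synapse, while groups II and III act through Gi/o, lower cAMP, and many of them sit on nerve endings where they restrain release. In the hippocampus Grm5 takes part in long-term depression and potentiation, and group II and III receptors are found on mossy fibres, perforant path endings, other terminals and glia. Described here are 7 genes of the family, Grm5 of group I, Grm2 and Grm3 of group II, and Grm4, Grm6, Grm7 and Grm8 of group III. They were chosen by gene symbol, as the probe sets annotated with 1 of these symbols alone, among 19938 genes with such a probe set. Each of the 7 had 1 probe set on the array.

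Expression was measured in whole hippocampus of adult male mice of the strain C57Bl/6J at 70 days of age. Ethanol mice had been given ethanol under the skin at a dose of 2.5 g/kg per injection (vehicle 0.15 M NaCl), with 2 injections on postnatal day 4 and 2 on day 7, and saline mice, drawn from the same litters, 0.15 M saline at the same times. Each of the 3 arrays per group (Affymetrix Mouse Gene 1.0 ST) held RNA pooled from 3 males of different litters, so that 9 mice stand behind each group and the spread between arrays is one between pools. Values are log2 expression values from RMA, which corrects background, equalizes the arrays and combines the probes of a set. Probe sets differ in how well they bind, so differences are read between pools for 1 gene, and a list's brightest probe sets are named for their signal, not as its most expressed genes.

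Across the 6 arrays, values correlated at 0.997 to 0.998 over probe sets, and medians ran from 5.84 to 5.89. The tissue's own markers were present, as 7 of 7 measured markers of dentate granule neurons and 8 of 8 of CA1 and CA3 pyramidal neurons lay above 5.385, called the dim level below, under which 95% of 1194 genes for odorant and vomeronasal receptors had their mean. Markers of neighbouring tissue differed between pools. Of 15 thalamus markers, 13 of them above the dim level, 10 were higher past an unadjusted p of 0.05 in limma and 0 lower. Of all 19938 genes, 2.8% were higher and 2.41% lower past it. The list was chosen with earlier results of these data known. It holds Tcf7l2 and Synpo2, which the authors had listed as changed, so its count is a description and not a test. Its changes ran from 0.01 (Gbx2) to 0.76 (Ramp3). The mean of the list exceeded that of the saline pools by 0.77, 0.29 and 0.12 (log2) in ethanol pools 1, 2 and 3, against -0.01 to 0.01 in the saline pools. The choroid plexus list (12 measured genes, all above the dim level) lay at 1.07, -0.28 and 0.63 in the same ethanol pools, against -0.17, -0.02 and 0.19 in saline pools 1, 2 and 3, with 3 genes higher and 0 lower past the threshold and 0 whose pools did not overlap. Examples are Ramp3, a partner of calcitonin family receptors (0.76 ± 0.26, SE, log2), Synpo2, an actin-binding protein (0.72 ± 0.22), and in choroid plexus Kl, the anti-ageing hormone co-receptor klotho (0.52 ± 0.22), and Steap1, a metalloreductase family member (0.50 ± 0.20). Without ethanol pool 1 the changes were over 1.5 times smaller, at 0.41 for Ramp3, 0.40 for Synpo2, 0.30 for Kl and 0.30 for Steap1, and without ethanol pool 2 those of Kl (0.80) and Steap1 (0.76) were over 1.5 times larger. None of these 4 genes passed in the t-test of the methods as recomputed here, which gave Synpo2 an unadjusted p of 0.0872. The authors' own ANOVA had listed Synpo2 as higher after ethanol, as did their droplet digital PCR. In limma, Kl and Steap1 passed in 2 of the 6 fits with an array left out, Ramp3 and Synpo2 in 6. Since RNA was taken from whole tissue, fewer cells of a type and less RNA per cell cannot be told apart in any value that follows.

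The question here was whether the receptor genes differed in adult hippocampus after neonatal ethanol. Of the 7 genes, 0 passed an unadjusted p of 0.05 in limma and 0 passed in the t-test of the methods, where 5.22% of all 19938 genes passed in limma, 2.8% higher and 2.41% lower. After Benjamini-Hochberg adjustment over the 23410 probe sets with a gene symbol, 0 receptor genes passed in limma (lowest adjusted p = 0.931). Nor did any other gene, a share of 0%. The changes ran from -0.08 to 0.16 on the log2 scale, with 5 genes lower and 2 higher in their means, and their median was -0.02, beside 0.00 over all genes. With 3 pools a group, exact permutation could reach no p under 0.1, so none was computed. The ethanol pools lay wholly apart from the saline pools in 1 gene of 7, Grm3, which was lower. Pools did not overlap in 10.4% of all genes, and were wholly higher after ethanol in 5.35% and wholly lower in 5.09%.

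**Figure D1:**
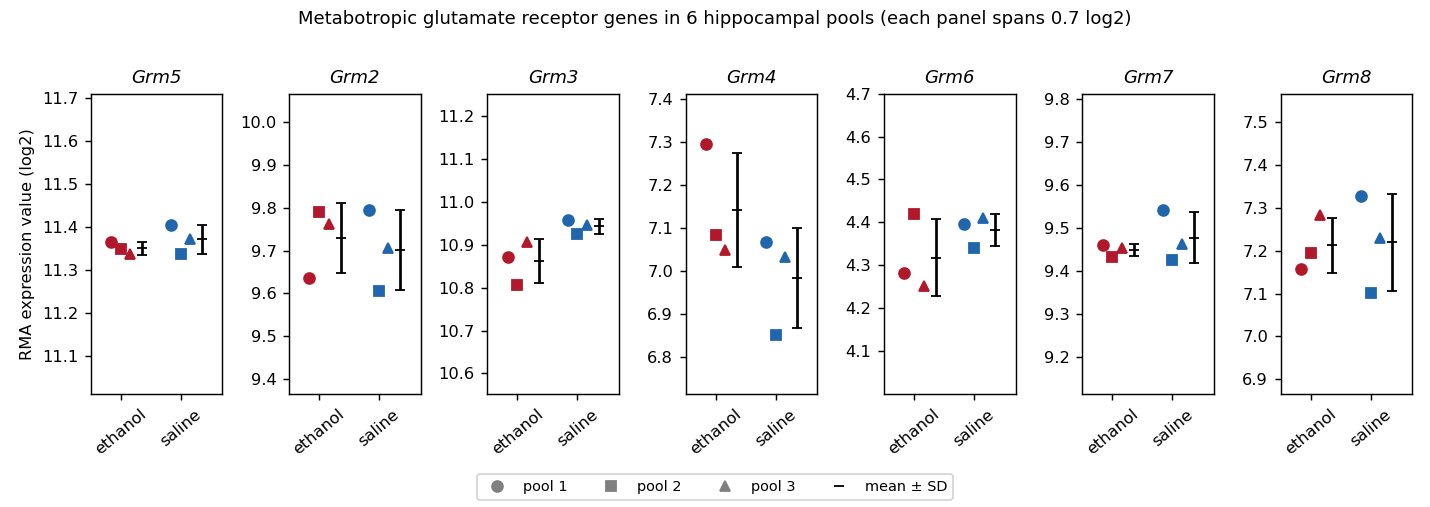
RMA expression value (log2) of the 7 receptor genes in each pool, ethanol in red to the left of saline in blue, with symbols for pools 1, 2 and 3 and the mean ± SD of each group in black; each panel has its own axis of equal span, 0.7 log2. The 3 ethanol pools of Grm3 lie below all 3 saline pools, while in the other 6 genes the groups overlap.

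Promoters of 2 receptor genes are shown as examples, Grm3 as the gene whose pools did not overlap and Grm6 as the gene under the dim level. Pools did not overlap in 10.4% of all genes, and Grm3 did not pass in limma (unadjusted p = 0.0845). Promoter windows of 5 receptor genes were found in the RefSeq table for GRCm38.p6, Grm2, Grm3, Grm6, Grm7 and Grm8, and Grm4 and Grm5 are named only. The 250 bases before the start of each transcript are given 5′ to 3′ on the gene's strand, with each CpG (the letters CG, which read the same on both strands) in capitals. Grm3 lies at chr5:9725353-9725602 on the minus strand and Grm6 at chr11:50850435-50850684 on the plus strand.
Grm3: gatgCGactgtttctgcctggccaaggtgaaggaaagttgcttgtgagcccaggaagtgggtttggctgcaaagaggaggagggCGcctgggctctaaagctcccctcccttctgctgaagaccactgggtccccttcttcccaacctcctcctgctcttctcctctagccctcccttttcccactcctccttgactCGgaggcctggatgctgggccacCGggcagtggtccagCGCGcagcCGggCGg
Grm6: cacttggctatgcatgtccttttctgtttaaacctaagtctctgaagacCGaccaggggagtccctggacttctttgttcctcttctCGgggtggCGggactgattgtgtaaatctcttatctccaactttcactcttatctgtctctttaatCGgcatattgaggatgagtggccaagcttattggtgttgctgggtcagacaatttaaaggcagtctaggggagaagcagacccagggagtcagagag

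The Grm3 window held 8 CpG sites and 62.4% G and C, and the Grm6 window 4 CpG sites and 47.6%. The median over 32851 promoter windows of this length was 6 CpG sites, and 92.1% held at least 1. Grm2 had 16, the 2 windows of Grm7 had 8 and 9, and the 3 windows of Grm8 had 2, 8 and 29. The windows of the family thus lay on both sides of the median, and those of Grm8 alone ran from one with more CpG sites than 18.8% of all windows to one with more than 93.2%. These counts describe the reference sequence alone, since DNA methylation was not analysed here.

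Grm5, the group I receptor that couples to Gq and binds Homer scaffolds at the postsynaptic density, had the narrowest spread of the 7. It stood at 11.36, 11.35 and 11.34 in ethanol pools 1, 2 and 3, against 11.41, 11.34 and 11.37 in saline pools 1, 2 and 3. The ethanol pools fell within the span of the saline pools but for pool 3, which lay just under it, and the range over all 6 ranked at the 5.14 percentile of all genes, counted from the narrowest. The change was -0.02 ± 0.04 (SE, log2; unadjusted p = 0.586, adjusted p = 0.973 in limma). Its 95% confidence interval ran from 0.927 to 1.05 times the saline level.

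Among group II receptors, which restrain glutamate release at mossy and perforant path endings, Grm2 stood at 9.64, 9.79 and 9.76 in ethanol pools 1, 2 and 3, against 9.79, 9.61 and 9.71 in saline pools 1, 2 and 3. The groups overlapped throughout, with ethanol pool 1 and saline pool 2 both low. The change was 0.03 ± 0.06 (SE, log2), with an interval from 0.926 to 1.12 times the saline level. Its sign turned without saline pool 2 (-0.02) and without ethanol pool 2 (-0.00253).

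Grm3, the group II receptor that is also prominent in astrocytes and responds to the peptide transmitter NAAG, stood at 10.87, 10.81 and 10.91 in ethanol pools 1, 2 and 3, against 10.96, 10.92 and 10.95 in saline pools 1, 2 and 3. All ethanol pools were below all saline pools, ethanol pool 3 by less than the saline pools differed among themselves. The change was -0.08 ± 0.04 (SE, log2), or 0.945 times the saline level with an interval from 0.885 to 1.01, and it did not pass in limma (unadjusted p = 0.0845, adjusted p = 0.931). It passed the unadjusted threshold with median centring (-0.10, unadjusted p = 0.0451), with an intensity trend in limma (unadjusted p = 0.0431) and without ethanol pool 3 (-0.10, unadjusted p = 0.0486), and was -0.05 without ethanol pool 2, over 1.5 times smaller. Glial markers are given beside it. Of 12 markers of oligodendrocytes and myelin, all above the dim level, 4 were lower past the unadjusted threshold and 0 higher, and the mean of the list lay at -0.07, -0.20 and -0.04 in ethanol pools 1, 2 and 3, against -0.06, 0.06 and 0.00 in saline pools 1, 2 and 3. Of 11 astrocyte markers, all above the dim level, 0 passed, and their mean lay at -0.02, -0.07 and 0.00 in the same ethanol pools, against -0.06, 0.03 and 0.02 in the saline pools. Ethanol pool 2 was the lowest of the 6 pools in Grm3 and in both lists. The saline pools stood otherwise. Saline pool 1 was the highest of them in Grm3 and the lowest of them in both lists. Saline pool 2 was the lowest of them in Grm3 and the highest of them in both lists. The part of glial RNA in the Grm3 values was not tested.

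**Figure D2:**
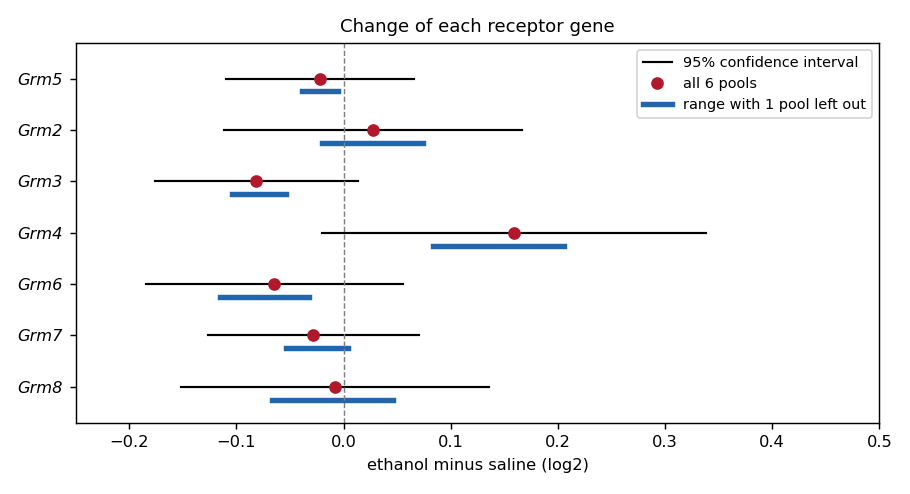
Log2 change (ethanol minus saline) of each receptor gene, with the 95% confidence interval from limma in black and, in blue beneath it, the span of the change when each pool in turn was left out. Every interval includes 0, and Grm4 has both the largest change (0.16) and the widest interval.

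Group III receptors are the autoreceptors of many glutamate endings. Grm4, which is best known from cerebellar granule cell terminals, had the largest change of the family and the widest spread, with a range over the 6 pools at the 97.7 percentile of all genes. It stood at 7.29, 7.08 and 7.05 in ethanol pools 1, 2 and 3, against 7.07, 6.85 and 7.03 in saline pools 1, 2 and 3. Ethanol pool 1 was the highest of all and saline pool 2 the lowest, while the other 4 pools lay close together and the groups overlapped. The change was 0.16 ± 0.08 (SE, log2), or 1.12 times the saline level with an interval from 0.986 to 1.26, and it did not pass in limma (unadjusted p = 0.0751, adjusted p = 0.931). It passed the unadjusted threshold in limma with pool number as a block (unadjusted p = 0.0278) and without ethanol pool 3 (0.21, unadjusted p = 0.0476). It was over 1.5 times smaller without ethanol pool 1 (0.08) or saline pool 2 (0.09). From the saline mean, Grm4 lay at 0.31, 0.10 and 0.07 in ethanol pools 1, 2 and 3. The thalamus list, at 0.77, 0.29 and 0.12, and the dentate granule neuron list, at 0.08, -0.03 and -0.16, had the same order. So had the means of 3 lists described below, group I signalling, glutamate release and uptake, and other class C receptors. The order is thus not particular to the thalamus and dentate lists. In the saline pools Grm4 lay between -0.13 and 0.08. The mean of the thalamus list lay between -0.01 and 0.01 there, and that of the dentate list between -0.06 and 0.07. A mean of many genes evens out their spread, so it is not like that of 1 gene. Single thalamus markers had saline SDs from 0.01 (Ramp3) to 0.22 (Zic1), beside 0.12 for Grm4. The part of thalamic or dentate RNA in the Grm4 values was not tested.

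Grm7, the group III receptor of the presynaptic active zone, which is bound by the scaffold protein PICK1, stood at 9.46, 9.43 and 9.45 in ethanol pools 1, 2 and 3, against 9.54, 9.43 and 9.46 in saline pools 1, 2 and 3. Saline pool 1 was high and the other 5 pools lay together, with the ethanol pools inside the saline range. The change was -0.03 ± 0.04 (SE, log2), from 0.916 to 1.05 times the saline level, and its sign turned without saline pool 1 (0.00449). Grm8, another presynaptic receptor, stood at 7.16, 7.19 and 7.28 in ethanol pools 1, 2 and 3, against 7.33, 7.10 and 7.23 in saline pools 1, 2 and 3. Here too the ethanol pools lay inside the saline range, with a change of -0.01 ± 0.06, from 0.901 to 1.099 times the saline level, and a sign that turned without saline pool 1 (0.05), ethanol pool 1 (0.02) or ethanol pool 2 (0.00114).

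Grm6, the receptor of retinal ON bipolar cells, was the one member at or under the dim level, with 4.28, 4.42 and 4.25 in ethanol pools 1, 2 and 3, against 4.40, 4.34 and 4.41 in saline pools 1, 2 and 3. Ethanol pools 1 and 3 were below all saline pools and ethanol pool 2 was above them. The change was -0.06 ± 0.05 (SE, log2; unadjusted p = 0.251 in limma), and it was -0.12 without ethanol pool 2, where it passed the unadjusted threshold (unadjusted p = 0.0411). At such a level expression cannot be told from that of the odorant receptor genes, and the difference is not read further.

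Certain pools recurred at the ends of the range. Saline pool 1 held the highest value in 5 of the 7 receptor genes, Grm2, Grm3, Grm5, Grm7 and Grm8, and saline pool 2 the lowest in 4, Grm2, Grm4, Grm7 and Grm8. Of the 12399 genes above the dim level, 15.2% were highest in saline pool 1 and 14.3% lowest in saline pool 2. Within the saline group, pool 1 was the highest and pool 2 the lowest in Grm2, Grm3, Grm4, Grm5, Grm7 and Grm8, all receptor genes but Grm6. The share of all genes with this order was not counted, so it is not read as particular to the receptor genes.

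The genes whose values followed a receptor gene most closely over the 6 pools were sought among genes above the dim level with a range of at least 0.2. They were Hivep3 (r = 0.992) and Hivep1 (r = 0.989) for Grm5, a pair of zinc finger transcription factor genes of 1 family, and Phldb1 (r = 0.9747) and Msto1 (r = 0.962) for Grm3. For Grm4 they were Rims3 (r = 0.992), which encodes a protein of the presynaptic active zone, and Prkg2 (r = 0.986), a cGMP-dependent protein kinase. For Grm2 they were Ddx31 (r = 0.954) and Lrrc3 (r = 0.943), for Grm7 Pex26 (r = 0.994) and Tmem88 (r = 0.984), and for Grm8 Tnni2 (r = 0.987) and Dhx34 (r = 0.978). These r are Pearson correlations over 6 arrays of both groups and are given as a description. Of the 4481 or 4482 genes searched, between 12 and 68 had an r over 0.9 with a given receptor gene, so the leading genes are a few of many. The number that unrelated genes would give over 6 arrays was not computed.

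The signalling pathways around the receptors are read against the share of all genes past the unadjusted threshold in limma, 2.8% higher and 2.41% lower. In the group I pathway (Gq, phospholipase C, calcium release, Homer and Shank scaffolds), 1 of 20 measured genes was higher past the unadjusted threshold and 0 lower, with a median change of -0.00203 (log2). The passing gene was Plcb4, a phospholipase C isoform that is abundant in thalamus and cerebellum. It stood at 9.42, 8.78 and 8.69 in ethanol pools 1, 2 and 3, against 8.60, 8.62 and 8.52 in saline pools 1, 2 and 3. All ethanol pools were above all saline pools, and ethanol pool 1 lay far above the rest. The change was 0.39 ± 0.16 (SE, log2), or 1.31 times the saline level (unadjusted p = 0.0427, adjusted p = 0.931 in limma), and it was 0.16 without ethanol pool 1. It missed the threshold in the t-test of the methods (unadjusted p = 0.169) and in limma when saline pool 1, 2 or 3 was left out, when dim probe sets were filtered out at the dim level (unadjusted p = 0.0504) and when all rows of the value table were tested (unadjusted p = 0.0738). Its ethanol pools stood in the order of the thalamus list and the dentate list, an order that other lists shared, as given above. The part of thalamic or dentate RNA in the Plcb4 values was not tested. The brightest genes of the list, Ncdn (norbin, which binds Grm5) and Prkcb (a protein kinase C), had changes of 0.02 ± 0.04 and -0.01 ± 0.04.

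In the Gi/o pathway that groups II and III use (inhibitory G proteins, adenylyl cyclases, GIRK and presynaptic calcium channels, RGS proteins, PICK1 and the ELFN partners), 0 of 27 genes passed the unadjusted threshold in limma, in either direction, and the changes ran from -0.08 to 0.08. Its brightest genes were Gnb1, a G protein beta subunit (0.05 ± 0.04, SE, log2), and Gnao1, the alpha subunit Go (-0.01 ± 0.04). Of 6 kinases and arrestins that silence active receptors, 0 passed, with Arrb1 at -0.04 ± 0.04 and Arrb2 at 0.05 ± 0.06. In the NAAG cycle, which makes and breaks down the transmitter that Grm3 senses, 0 of 5 genes passed, and Nat8l, which makes N-acetylaspartate, and Rimklb, which joins it to glutamate, were at -0.04 ± 0.04 and -0.04 ± 0.05.

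Of 12 genes of glutamate release and uptake, 2 were higher and 0 lower past the unadjusted threshold, and the median was -0.02. Slc17a6, the vesicular glutamate transporter VGLUT2 of thalamic and other subcortical neurons, stood at 8.81, 8.41 and 8.21 in ethanol pools 1, 2 and 3, against 8.01, 8.04 and 8.17 in saline pools 1, 2 and 3. Its change was 0.40 ± 0.13 (SE, log2; unadjusted p = 0.0138, adjusted p = 0.931 in limma), and 0.24 without ethanol pool 1, over 1.5 times smaller, where it still passed. It is itself 1 of the 15 thalamus markers. Slc17a8, the transporter VGLUT3 of some inhibitory and serotonin neurons, stood at 5.91, 5.92 and 5.98 in ethanol pools 1, 2 and 3, against 5.82, 5.72 and 5.88 in saline pools 1, 2 and 3. The groups did not overlap, and its change of 0.13 ± 0.05 (unadjusted p = 0.0353 in limma) was 0.08 without saline pool 2, over 1.5 times smaller, and it missed the threshold there and without saline pool 1, ethanol pool 2 or ethanol pool 3. It also missed the threshold with median centring (unadjusted p = 0.0627), quantile normalization (unadjusted p = 0.0542), an intensity trend (unadjusted p = 0.0697) and array weights (unadjusted p = 0.0915) in limma. Neither gene passed in the t-test of the methods. The remaining 10 genes had changes between -0.06 and -0.0043, among them the astrocytic transporter Slc1a2. Pools did not overlap in 2 higher and 3 lower genes of the 12, against 5.35% and 5.09% of all genes. The lower genes were Slc1a1, Slc1a2 and Slc1a3, at -0.04, -0.02 and -0.06, and none of them passed the threshold in limma.

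**Figure D3:**
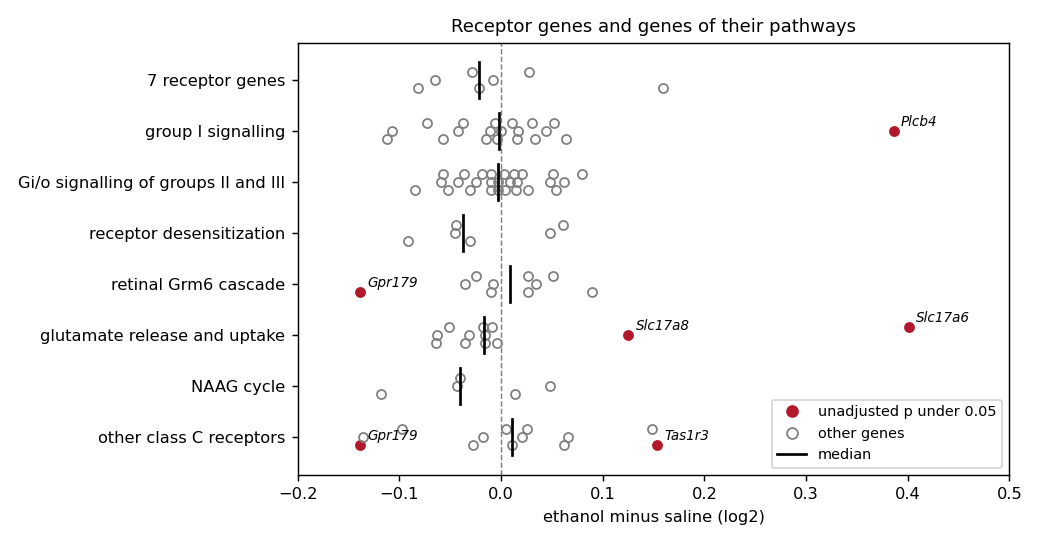
Log2 change (ethanol minus saline) of the 7 receptor genes and of the measured genes of 7 related lists, with filled symbols for genes past the unadjusted threshold of 0.05 (limma) and a black bar at the median of each list. The receptor genes hold no filled symbol, and the largest changes are those of Slc17a6 (0.40) and Plcb4 (0.39).

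**Figure D4:**
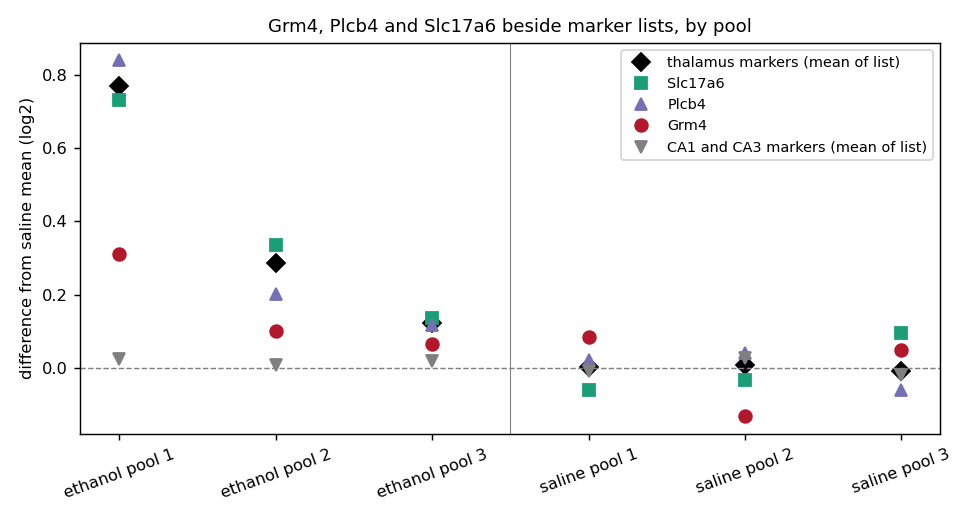
Value minus the average saline pool (log2) for Grm4, Plcb4, Slc17a6, the mean of 15 thalamus markers and the mean of 8 CA1 and CA3 markers, by pool, ethanol to the left of saline. Grm4, Plcb4, Slc17a6 and the thalamus list are all highest in ethanol pool 1, at 0.31, 0.84, 0.73 and 0.77, while the CA1 and CA3 list stays between -0.02 and 0.03; the dentate list, not drawn, lay at 0.08, -0.03 and -0.16 in the ethanol pools.

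Many relatives of the family and retinal partners of Grm6 were dim. Of 13 other class C receptor genes, 5 lay above the dim level, 1 was higher and 1 lower past the unadjusted threshold. Tas1r3, a subunit of the sweet and umami taste receptors, stood at 4.76, 4.86 and 4.85 in ethanol pools 1, 2 and 3, against 4.62, 4.66 and 4.74 in saline pools 1, 2 and 3 (0.15 ± 0.05, SE, log2). Gpr179, an orphan receptor that holds the Grm6 cascade together in retina, stood at 4.53, 4.61 and 4.57 in ethanol pools 1, 2 and 3, against 4.65, 4.75 and 4.73 in saline pools 1, 2 and 3 (-0.14 ± 0.04). In both genes the groups did not overlap, both lay under the dim level, and neither passed after adjustment (adjusted p = 0.931 in limma). Gpr179 was also the 1 gene of 10 in the retinal Grm6 list that passed, and 5 of the 10 lay above the dim level. Of the brightest of that list, Gnao1 is given above and Rgs7, a Gi/o-restraining RGS protein, was at 0.03 ± 0.04.

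Markers of the hippocampal cell types other than myelin held no gene past the threshold in limma. In the lists of dentate granule neurons (7 genes), CA1 and CA3 neurons (8), inhibitory neurons (10), oligodendrocyte precursors (6), astrocytes (11) and microglia (7), 0 genes passed the unadjusted threshold in limma. In the same order of lists, 1, 5, 7, 1, 2 and 2 genes had a higher mean after ethanol. The median changes were -0.05, 0.00267, 0.02, -0.04, -0.02 and -0.07 (log2). The 2 brightest genes of each list are named next, whatever the direction of the rest. The dentate genes C1ql3 and Calb1 were at -0.05 ± 0.05 and 0.05 ± 0.04 (SE, log2), and the pyramidal genes Neurod6 and Mpped1 at 0.04 ± 0.05 and -0.00437 ± 0.07. Sst and Cck of inhibitory neurons were at 0.10 ± 0.06 and 0.06 ± 0.04, Olig1 and Gpr17 of precursors at -0.02 ± 0.05 and -0.03 ± 0.04, Slc1a2 and Aldoc of astrocytes at -0.02 ± 0.04 and -0.03 ± 0.04, and Csf1r and Cx3cr1 of microglia at -0.07 ± 0.04 and 0.01 ± 0.06. Csf1r passed in the t-test of the methods (unadjusted p = 0.0252). Among myelin genes Opalin was at -0.21 ± 0.07 and Mal at -0.15 ± 0.05, both past the unadjusted threshold. Opalin missed it in the t-test of the methods (unadjusted p = 0.0852) and passed in limma in 2 of the 6 fits with an array left out, Mal in 6.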

How the data were processed

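The authors hybridized RNA of 6 pools to Affymetrix Mouse Gene 1.0 ST arrays, and deposited log2 values summarized per gene by RMA, used here unaltered. For the RMA software and the annotation's build, the version is not given in the sources used here. Of 35556 probe sets, 21789 had 1 gene symbol, 1621 several and 12146 none in the platform annotation. The 23410 with a symbol were tested in R 4.3.3 with limma 3.58.1 (lmFit, then eBayes; two-sided, no covariate, ethanol minus saline, Benjamini-Hochberg adjustment over all 23410), after the 2-group ANOVA of the methods, called the methods' t-test here. The brightest probe set stood for a gene with several. The number of arrays limits precision, with a median SE of 0.05 (log2). The procedure was tested on simulated data. Alternatives were the methods' t-test, the replicate block, other normalizations, filters, probe sets and variance models, and each array left out.

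The receptor genes and gene lists were chosen with earlier results of these data known, and 174 of 185 listed symbols were measured. Named are all receptor genes, in each pathway list up to 4 genes past the unadjusted threshold (up to 2 in marker lists), the 2 brightest where fewer than 2 passed, and the 2 genes most like each receptor gene above the dim level. RefSeq names (GRCm38.p6) matched 99.6% of symbols. Figures were drawn with matplotlib 3.10.9.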

Additional observations from a re-analysis of the deposited data

How the results depend on the processing

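The count of receptor genes past the adjusted threshold was 0 under every alternative run. At the unadjusted threshold, against 0, the count was 1 with the replicate block (Grm4, 0.16 ± 0.06, unadjusted p = 0.0278 in limma), 1 with median centring (Grm3), 1 with an intensity trend (Grm3), and 0 to 2 with each array left out. Deviations from the group mean correlated over genes at -0.0157, 0.038 and 0.0883 for pools with the same number. For pools with different numbers they ran from -0.241 to 0.173. With 3 pools a group, these values cannot tell whether pools of the same number shared litters, and the main fit held no block. Over all genes 991 passed with the block and 1040 without it. Under alternatives other than leaving out an array, 0 receptor genes changed sign; Cx3cr1 turned to -0.00148 with median centring and -0.00115 with array weights, Gnao1 to 0.00315 with array weights and Mpped1 to 0.000258 with quantile normalization, and the cause was not tested. With each array left out, changes ran from -0.0197 to 0.0746 for Grm2, -0.0538 to 0.00449 for Grm7, -0.0665 to 0.0466 for Grm8, -0.0257 to 0.00457 for Prkcb, -0.0231 to 0.0138 for Gnao1, -0.0141 to 0.0844 for Arrb2, -0.00102 to 0.0547 for Rgs7, -0.0937 to 0.000312 for Rimklb, -0.0531 to 0.0337 for Olig1, -0.0658 to 0.076 for Mpped1 and -0.0382 to 0.0577 for Cx3cr1. Filters on dim probe sets left out Grm6 and tested fewer genes, of which 417 of 9911 (above the median level) and 537 of 12399 (above the dim level) passed the unadjusted threshold, against 1040 of 19938.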
